A study of Mus musculus with 24 samples.

Results

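Condensing spermatids with a knockdown of CBP and p300 were compared with wild-type condensing spermatids across all detected genes of an Illumina bead array. The comparison used 12 of the 24 arrays of the series, taken by their labels: 6 arrays of knockdown cells, replicates 19 to 24, and 6 arrays of wild-type cells, replicates 13 to 18. The knockdown is labelled as affecting both genes after meiosis, and all mice were 7 weeks old. The other 12 arrays hold round spermatids, 6 of the knockdown and 6 of the wild type, and are used here where the effect in condensing cells is set beside that in round cells. The labels name neither the promoter or Cre that drives the knockdown nor the animals behind an array. The p-values therefore reflect array-to-array spread only, which may in part be technical.

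CBP, encoded by Crebbp, and p300, encoded by Ep300, are related coactivators that acetylate histones and are recruited to promoters and enhancers by DNA-binding factors such as those of the CREB family. Condensing spermatids are the haploid cells that follow round spermatids. In them the histones are replaced by transition proteins and then by protamines, transcription winds down, and many messenger RNAs made earlier are stored until they are translated.

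Of 45281 probes, between 34.6% and 37.3% were detected on each knockdown array and between 34.95% and 36.9% on each wild-type array. After a filter on detection, 10759 genes were tested, each by its brightest probe, on a log2 scale of normalized intensity. The first principal component of the 12 condensing arrays held 19.3% of their variance, with wild-type replicate 16 at its low end and knockdown replicate 19 at its high end. Results are given with and without these arrays where that changed a count by more than 1.5 times. Genes that package spermatid chromatin were bright in both groups. The transition protein gene Tnp1 had a median log2 intensity of 14.41 in the knockdown and 14.45 in the wild type. The protamine gene Prm1 had 14.69 in the knockdown and 14.65 in the wild type, on a scale whose highest value was 15.18. In round wild-type cells the medians were 14.48 for Tnp1 and 14.88 for Prm1, so these readings do not tell condensing from round cells. Markers of other cells were also measured at high levels. The beta globin gene Hbb-bs had medians of 14.56 in the knockdown and 14.30 in the wild type, the Sertoli cell gene Defb19 had 12.86 in the knockdown and 12.66 in the wild type, and the Leydig cell hormone gene Insl3 had 10.93 in the knockdown and 10.98 in the wild type.

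The targeted genes themselves did not pass the test. The Crebbp probe read 5.04, 5.79 and 6.23 (lowest, median and highest of the 6 knockdown arrays) against 5.53, 5.79 and 6.14 in the wild type. Its difference was -0.11 ± 0.17 on the log2 scale (SE, n = 6 arrays each, limma adjusted p = 0.935), with a 95% interval of -0.46 to 0.24. A dimmer Crebbp probe gave -0.45 ± 0.19, with an adjusted p of 0.471 over all kept probes. Ep300 read 6.43, 6.51 and 6.82 in the knockdown against 6.18, 6.67 and 6.85 in the wild type, a difference of -0.02 ± 0.17 (adjusted p = 0.989). The groups overlapped for both genes. Where the probes lie relative to the targeted sequence is not given in the sources used here, so these readings do not check the knockdown.

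Between the groups 58 of the 10759 genes, 0.539%, were called at a limma adjusted p under 0.05. That count depended on the scaling and the model: it was 22 with median scaling, 24 with cyclic loess, 22 with consecutive arrays as a random block and 116 with array weights. Of the 58, 28 were higher in the knockdown (0.26% of all genes) and 30 were lower (0.279%). The called differences ran from 1.30-fold to 3.58-fold, and 6 of the 58 reached 2-fold, 4 lower and 2 higher. These sizes depended on the background step. With no background correction none of the 58 reached 2-fold, and the largest was 1.87-fold: Ccl4 was then 1.77-fold lower, Fos 1.87-fold, Gria1 1.53-fold and Il1b 1.37-fold lower, while Igfbp6 was 1.55-fold and Htra3 1.49-fold higher. In 36 of the 58 the knockdown and wild-type arrays did not overlap at all, 13 higher and 23 lower in the knockdown. Over all genes 141, or 1.31%, did not overlap. The 58 were called on the same arrays, so their higher share follows from the selection and is no added support. At an unadjusted p under 0.05 the count was 948 genes, 8.81% of those tested, with 4.91% of all genes higher and 3.9% lower. The median difference over all genes was 0.01 on the log2 scale, the median half-width of the 95% interval corresponded to 1.22-fold, and for 10712 genes (99.6%) the whole interval lay within 2-fold in either direction.

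The size of the called set also depended on single arrays. It held 33, 27, 27, 31 and 35 genes without wild-type replicates 13, 15, 16, 17 and 18, and 31, 25 and 35 genes without knockdown replicates 21, 22 and 24. Without wild-type replicate 16 and knockdown replicate 19 together it held 36 genes, 22 higher and 14 lower, of which 27 were among the 58. Leaving out knockdown replicate 22 affected the rises most, of which 5 were then called. In total, 18 of the 58 genes were called whichever array was left out. Of these, 11 were called under every alternative in which they were tested. They were Ccl4, Il1b, Fos, Egr1, Zfp36, Emcn and Gria1 among the lower genes, and Htra3, Igfbp6, Col6a1 and Hspg2 among the higher ones. Emcn was tested in 25 of the 26 alternatives.

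**Figure D1:**
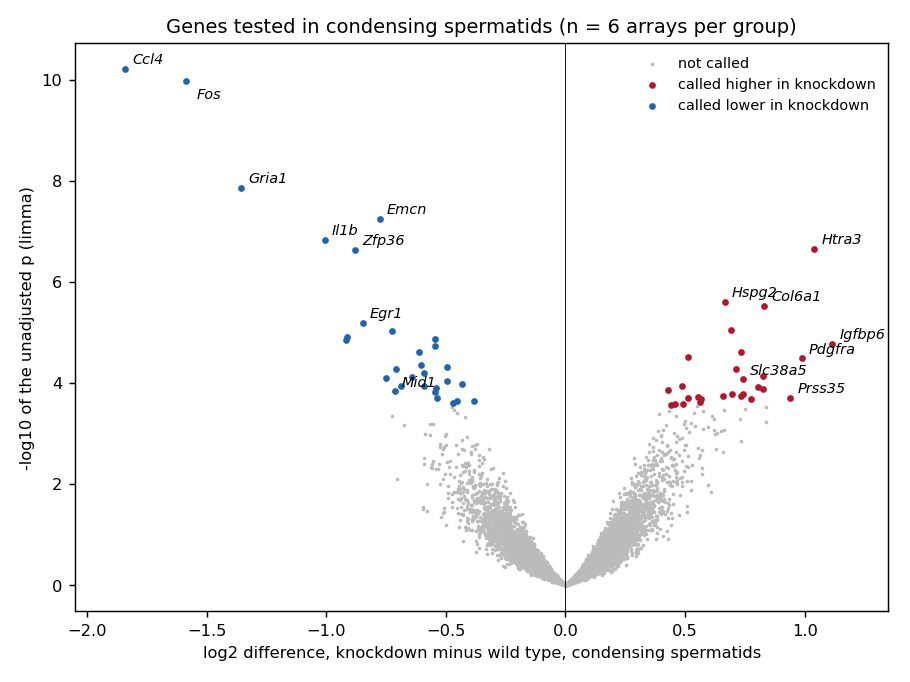
Each point is 1 of 10759 genes in condensing spermatids; the x axis is the log2 difference, knockdown minus wild type, and the y axis is minus log10 of the unadjusted limma p. The 30 genes called lower (blue) reach further out than the 28 called higher (red), with Ccl4 at -1.84 and Igfbp6 at 1.11.

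The called genes fell into a small number of kinds, sorted by known role after the calls had been seen. The lower genes comprised 5 immediate early and early response genes, 7 cytokine and leukocyte genes, 4 endothelial genes, the smooth muscle actin gene and 13 others. The higher genes comprised 12 genes of extracellular matrix and stromal cells, 5 of membrane transport and signalling, 2 of lipid metabolism, 4 of vesicles and secretion, and 5 others. Most were expressed below the middle of the range: 44 of the 58 had a mean level in condensing spermatids under the median of all genes, 7.11, and the brightest of them averaged 9.61.

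**Figure D2:**
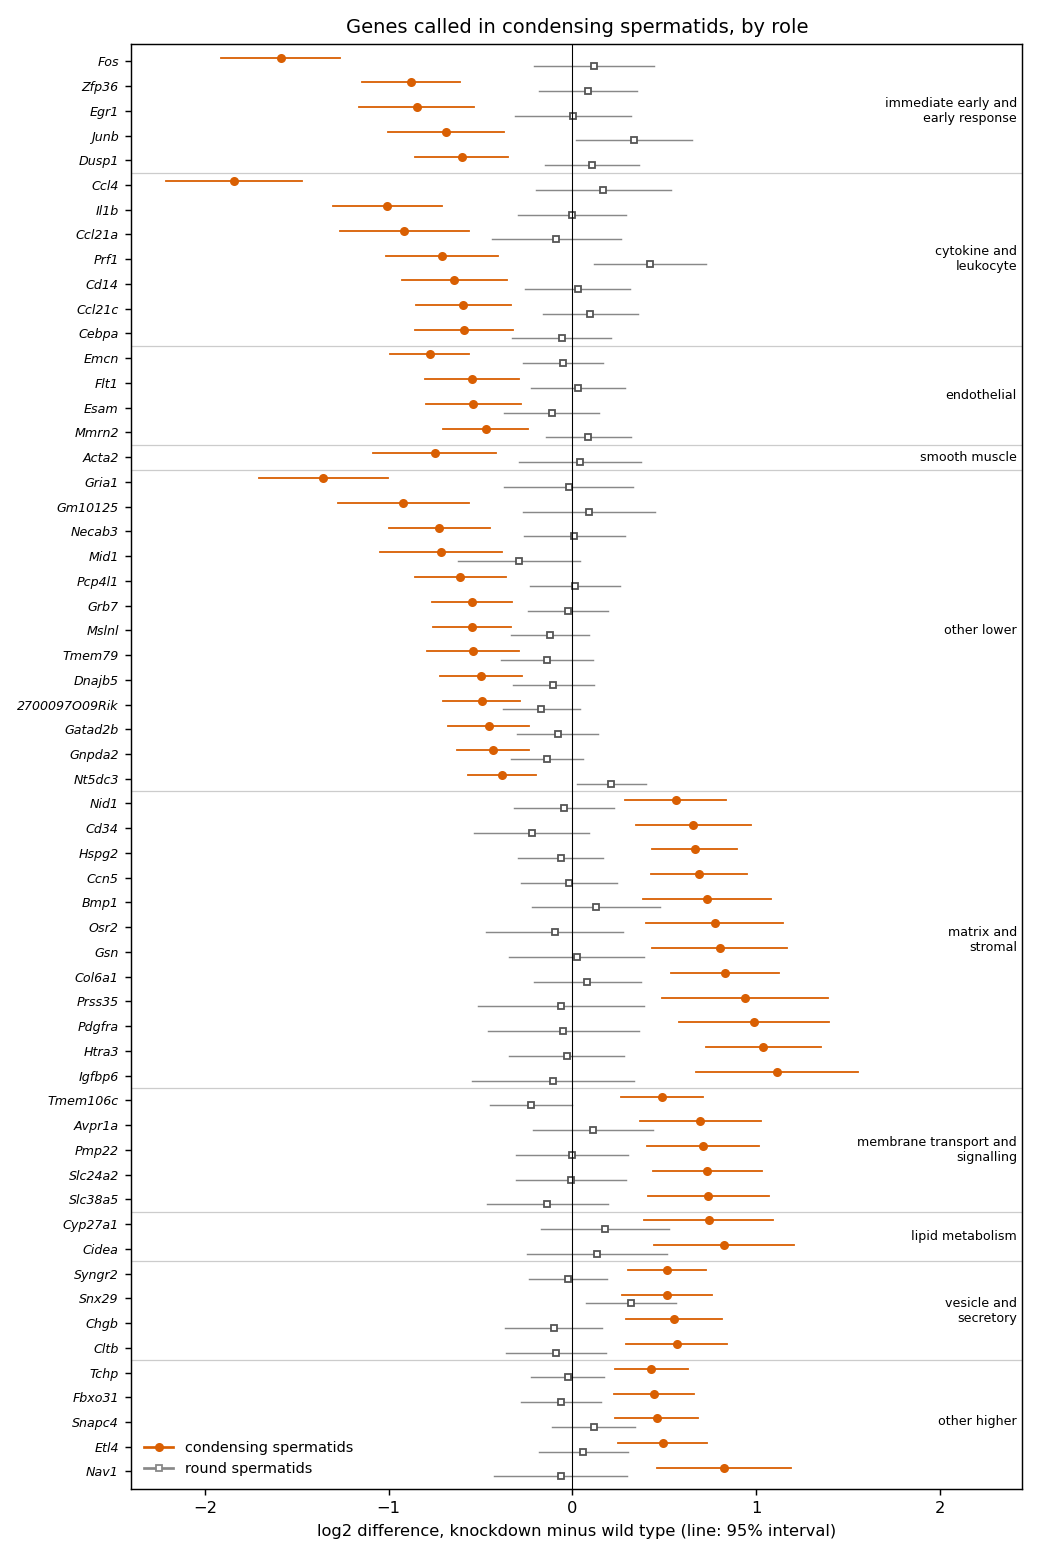
Each row is 1 of the 58 genes called in condensing spermatids, grouped by role; the x axis is the log2 difference, knockdown minus wild type, with its 95% interval, in condensing spermatids (filled circles) and round spermatids (open squares). In round spermatids the same genes lie between -0.29 and 0.42.

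Immediate early genes are transcribed within minutes of a stimulus, and their messages decay fast. Of 23 tested, 5 were called lower in the knockdown (21.7% of the list, against 0.279% of all genes). This list, like the others, was chosen with earlier results of these data known, so the share is no independent support. Fos, a subunit of the AP-1 transcription factor, read 6.20, 6.29 and 6.47 (lowest, median, highest) in the knockdown against 7.29, 7.93 and 8.56 in the wild type. Egr1, a zinc finger transcription factor, read 7.43, 7.62 and 7.79 against 7.88, 8.43 and 8.84 in the wild type. Zfp36, whose product tristetraprolin binds AU-rich messages and speeds their decay, read 6.38, 6.47 and 6.81 against 7.05, 7.39 and 7.80 in the wild type. In none of these did the groups overlap, and for each the wild-type arrays were more spread than the knockdown arrays. The SD for Fos was 0.10 in the knockdown against 0.50 in the wild type. It was 0.12 against 0.34 for Egr1 and 0.15 against 0.32 for Zfp36. The differences were -1.59 ± 0.16 for Fos (adjusted p = 5.56e-07), -0.85 ± 0.15 for Egr1 (adjusted p = 0.0069) and -0.88 ± 0.13 for Zfp36 (adjusted p = 0.000361).

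Dusp1, a phosphatase that switches off MAP kinases, was the brightest of the early response genes called. It read 8.35, 8.57 and 8.72 in the knockdown against 8.88, 9.10 and 9.54 in the wild type, again without overlap, and was 1.52-fold lower (adjusted p = 0.0213). Its call was lost without wild-type replicate 15 or 16 or knockdown replicate 21 or 22 (adjusted p from 0.0542 to 0.0667). Junb, another AP-1 subunit, was 1.61-fold lower (adjusted p = 0.0358) with overlapping groups, and was detected on 3 of 6 knockdown arrays against 6 of 6 wild-type arrays. Junb stayed called only when the array left out was wild-type replicate 14 or knockdown replicate 20 or 22, and had an adjusted p of up to 0.0985 otherwise.

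The other 18 members of the immediate early list were not called in either direction, and the list's median difference was -0.09 against 0.01 for all genes. Fosb had a difference of -0.22, Klf4 of -0.15, Jund of -0.08 and Arc of 0.07, with adjusted p from 0.799 to 0.956. The AP-1 gene Fosl2 had a difference of 0.32 (adjusted p = 0.621). Jun, Atf3, Nr4a1 and Ier2 did not pass the detection filter. The summed linear intensity of the 23 members was 5264 to 6129 on the knockdown arrays and 5727 to 7079.9 on the wild-type arrays.

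The 250 bases before the annotated starts of 4 of these genes are shown because CREB family factors, which recruit CBP and p300, bind the cAMP response element TGACGTCA and its shorter form TGACG. The sequences are from RefSeq on GRCm38.p6: Fos on the plus strand at chr12:85473640-85473889, and, on the minus strand, Junb at chr8:84978749-84978998, Dusp1 at chr17:26508473-26508722 and Zfp36 at chr7:28379229-28379478. Capitals mark TGACG on either strand, with overlapping matches joined.
Fos: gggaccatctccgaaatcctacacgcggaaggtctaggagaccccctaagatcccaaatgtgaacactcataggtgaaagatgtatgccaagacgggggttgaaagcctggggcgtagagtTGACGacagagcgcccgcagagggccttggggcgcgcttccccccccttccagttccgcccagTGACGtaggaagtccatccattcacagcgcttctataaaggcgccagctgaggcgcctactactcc
Junb: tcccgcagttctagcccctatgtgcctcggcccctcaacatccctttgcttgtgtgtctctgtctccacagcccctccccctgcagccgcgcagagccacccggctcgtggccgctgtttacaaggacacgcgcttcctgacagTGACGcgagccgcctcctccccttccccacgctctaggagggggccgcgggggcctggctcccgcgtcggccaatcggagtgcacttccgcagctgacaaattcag
Dusp1: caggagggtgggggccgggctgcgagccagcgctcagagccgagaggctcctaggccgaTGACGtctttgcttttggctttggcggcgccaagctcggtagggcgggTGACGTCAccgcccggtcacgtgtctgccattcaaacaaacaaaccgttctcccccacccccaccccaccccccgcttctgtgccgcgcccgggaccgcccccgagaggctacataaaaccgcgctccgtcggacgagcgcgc
Zfp36: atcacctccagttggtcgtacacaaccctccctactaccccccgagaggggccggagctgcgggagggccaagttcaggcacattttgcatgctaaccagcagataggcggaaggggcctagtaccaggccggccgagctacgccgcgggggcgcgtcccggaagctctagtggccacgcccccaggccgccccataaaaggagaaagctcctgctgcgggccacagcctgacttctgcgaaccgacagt
The Dusp1 window held a full TGACGTCA starting 143 bases before the start and a further TGACG starting 191 bases before it. Fos held TGACG at 129 and at 66 bases before its start, Junb held it at 106, and the Zfp36 window held no match. Egr1 is not shown. It was not among the called genes with a TGACG match, but whether it had a window was not recorded, so a match before its start is not excluded. TGACG was present in 17.8% of all 32851 promoter windows of this length, and TGACGTCA in 1.55%. Of the 58 called genes, 45 had a window, with 60 windows between them, and TGACG was present in 28.3% of those windows and TGACGTCA in 6.67%. TGACGTCA was found for the lower genes Dusp1 and Flt1 and the higher genes Chgb and Cltb. Sequences of these letters say nothing of whether a factor was bound.

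A further 7 genes called lower are known from cytokine signalling or leukocytes. Ccl4, a chemokine of activated macrophages and lymphocytes, had the lowest knockdown-minus-wild-type difference of all genes tested. It read 4.94, 5.44 and 6.00 in the knockdown against 6.77, 7.32 and 7.85 in the wild type, a difference of -1.84 ± 0.18 (adjusted p = 5.56e-07). Il1b, which encodes the inflammatory cytokine interleukin-1 beta, read 5.70, 5.95 and 6.17 against 6.66, 6.76 and 7.42 in the wild type, 2.01-fold lower (adjusted p = 0.000318). The knockdown arrays lay below every wild-type array for both.

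Cd14, the coreceptor for bacterial lipopolysaccharide on myeloid cells, read 5.52, 6.19 and 6.22 in the knockdown against 6.18, 6.77 and 6.99 in the wild type. The difference of -0.64 ± 0.14 was called (adjusted p = 0.0298), although the groups overlapped and 2 of 6 knockdown arrays lay below the lowest wild-type array. Its call was lost without wild-type replicates 15, 16, 17 or 18 or knockdown replicates 19 or 24 (adjusted p up to 0.0809). Cebpa, a transcription factor of myeloid and other cells, was 1.51-fold lower without overlap (adjusted p = 0.0358), and 8 of the 12 single omissions ended that call, all but those of replicates 13, 14, 21 and 23. Prf1, which encodes the pore-forming perforin of cytotoxic lymphocytes, read 5.78, 6.26 and 6.48 against 6.63, 6.93 and 7.11 in the wild type, 1.64-fold lower (adjusted p = 0.0232). That call was lost without replicate 13, 16, 17, 21 or 24. The Prf1 probe was brighter in round than in condensing spermatids, with a median of 7.45 in wild-type round cells.

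Probes for Ccl21a and Ccl21c, chemokines of lymphatic endothelium, were lower as well. Ccl21a was detected on 2 knockdown arrays and 6 wild-type arrays and was 1.88-fold lower (adjusted p = 0.01). Ccl21c was detected on 1 knockdown array and 6 wild-type arrays and was 1.51-fold lower (adjusted p = 0.0267), a call lost without replicate 14, 15, 16, 19 or 20. The genes are near-identical copies, so their probes may read the same messages.

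Other inflammatory and macrophage genes did not pass the test. Of 8 cytokine, chemokine and related signalling genes tested, Ccl4 and Il1b were called lower (25% of the list, against 0.279% of all genes). The remaining 6 ranged from -0.59 for Nfkbiz (adjusted p = 0.202) to 0.15 for Nfkbia, both signalling regulators. At an unadjusted limma p under 0.05, 4 of the 8 were lower, against 3.9% of all genes. The summed intensity of all 8 did not overlap, at 569 to 678 in the knockdown and 733 to 1032 in the wild type. That sum includes the called Ccl4 and Il1b, and no sum without them was taken, so it says nothing of the other 6. Of 20 macrophage and leukocyte markers, Cd14 alone was called (5% of the list, against 0.279% of all genes), and the list's median difference was -0.16. At an unadjusted limma p under 0.05, 7 of the 20 were lower and none higher, against 3.9% of all genes lower. Lyz2 had a difference of -0.45 and C1qc of -0.44, whereas the class II genes H2-Aa, H2-Ab1 and H2-Eb1 had differences of -0.01, 0.17 and 0.18 and Csf1r, the macrophage growth factor receptor, of 0.23. The summed intensity of the 20 markers overlapped, at 12717.5 to 15207 in the knockdown and 11749 to 15409 in the wild type. Aif1, the brightest member, weighs most in that sum. It had medians of 13.06 in both groups and 12.61 in round wild-type cells. The list's mean log2 intensity also overlapped, with medians of 7.46 in the knockdown and 7.58 in the wild type. Ptprc, Tyrobp, Itgam and Spi1, also on the macrophage and leukocyte list, did not pass the detection filter. Fewer cells of a type and less RNA per cell cannot be told apart in these bulk samples.

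**Figure D3:**
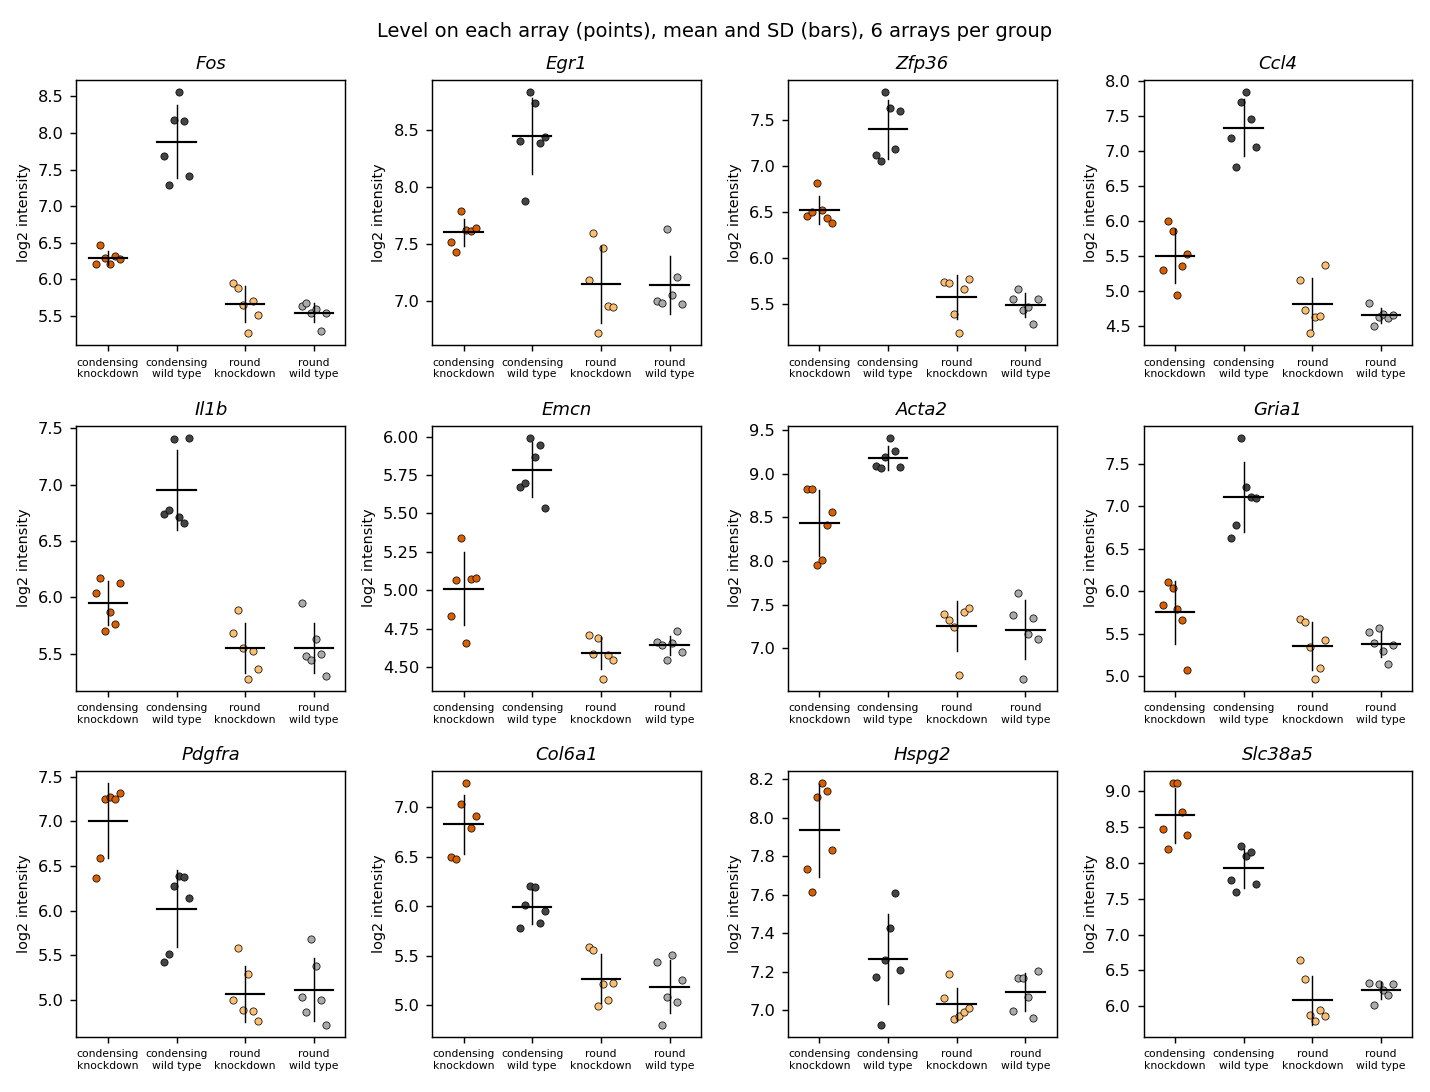
Log2 intensity of 12 called genes on each array (points), with the mean (horizontal bar) and SD (vertical bar) of 6 arrays per group. For Fos, Ccl4, Il1b, Emcn and Gria1 every condensing knockdown array lies below every condensing wild-type array, and the round spermatid groups overlap.

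The 4 called genes sorted as endothelial were lower by smaller amounts. Cd34, known from vascular as well as stromal progenitors and sorted with the stromal genes, was called in the other direction, at 0.66. Emcn, which encodes the endothelial surface sialoglycoprotein endomucin, read 4.66, 5.07 and 5.34 in the knockdown against 5.54, 5.78 and 5.99 in the wild type. It was detected on 1 knockdown array and on all 6 wild-type arrays, and the difference was -0.78 ± 0.11 (adjusted p = 0.000153). Flt1, a receptor for vascular endothelial growth factor, was 1.46-fold lower (adjusted p = 0.0394). Esam, an adhesion molecule of endothelial junctions, read 6.23, 6.44 and 6.62 against 6.77, 6.90 and 7.37 in the wild type and was 1.45-fold lower (adjusted p = 0.0443). Mmrn2, a matrix protein made by endothelial cells, was 1.39-fold lower (adjusted p = 0.0492). The groups did not overlap except for Flt1. The last 3 calls were close to the threshold: that for Flt1 survived only the omission of replicate 18 or 19, that for Esam only that of replicate 14, and that for Mmrn2 only that of replicate 21 or 23, with adjusted p up to 0.136.

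Of 14 endothelial markers tested, Emcn, Flt1 and Esam were called lower and none higher, against 0.279% of all genes called lower. This list too was chosen with earlier results of these data known. The differences of 13 of the 14 were below 0, against 47.6% of all genes. The median was -0.20, and it was -0.09 with no background correction. Cldn5, a tight junction gene, had a difference of -0.56 (adjusted p = 0.217), Egfl7, the brightest member, had -0.14, and Kdr, the main receptor for vascular endothelial growth factor, had 0.19. The summed intensity of the list did not overlap between groups, at 1675 to 1806 in the knockdown and 1877 to 2178 in the wild type. That sum includes the called Emcn, Flt1 and Esam, and no sum without them was taken. Pecam1, Tie1 and Plvap did not pass the detection filter.

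Acta2, the actin of smooth muscle and peritubular myoid cells, read 7.96, 8.49 and 8.83 in the knockdown against 9.06, 9.14 and 9.41 in the wild type. The groups did not overlap, and the difference was -0.75 ± 0.16 (adjusted p = 0.03). The other 3 kept probes for Acta2 gave differences of -0.42, -0.26 and -0.49, with adjusted p from 0.127 to 0.737 over all kept probes. The call was lost without replicate 15, 16, 17, 21, 22 or 23. The remaining 7 members of the myoid and smooth muscle list were not called and ranged from -0.21 for Myh11 to 0.24 for Des. The list's summed intensity was 13515 to 15282 in the knockdown and 14366.5 to 15745 in the wild type. Actg2, the brightest member, weighs most in that sum. It had medians of 13.68 in the knockdown, 13.74 in the wild type and 13.28 in round wild-type cells.

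Gria1, which encodes a subunit of AMPA-type glutamate receptors, stood apart from these groups. It read 5.08, 5.81 and 6.11 in the knockdown against 6.62, 7.10 and 7.81 in the wild type, without overlap, and was 2.56-fold lower (adjusted p = 4.91e-05). Its 2 further probes gave differences of -0.96 (adjusted p = 0.000494 over all kept probes) and -0.75 (adjusted p = 0.0559).

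The other 12 lower genes share no role. Necab3, which encodes a calcium-binding protein, read 4.83, 5.40 and 5.67 in the knockdown against 5.76, 6.00 and 6.39 in the wild type, 1.65-fold lower (adjusted p = 0.00855). Grb7, an adaptor of receptor tyrosine kinases, was 1.46-fold lower (adjusted p = 0.0118), and Mslnl, a mesothelin-like gene, was lower by the same 1.46-fold (adjusted p = 0.0102). Pcp4l1, a small calmodulin-binding protein, was 1.53-fold lower (adjusted p = 0.014). These 4 did not overlap between groups and were called whichever array was left out.

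Mid1, a ubiquitin ligase bound to microtubules, was 1.64-fold lower (adjusted p = 0.0394) with overlapping groups, and 9 of the 12 single omissions ended its call, all but those of replicates 13, 18 and 21. Nt5dc3, Gatad2b, a subunit of the NuRD chromatin complex, Gnpda2, an enzyme of amino sugar breakdown, and Tmem79 were lower by 1.30-fold to 1.46-fold. Dnajb5, an Hsp40 co-chaperone, was not well above background on any knockdown array and was detected on 4 wild-type arrays, which puts it at least 1.09-fold lower (adjusted p = 0.0322). Between 8 and 11 of the 12 single omissions ended the call of each of these 5 genes, Nt5dc3 to Dnajb5. The other 2 lower genes have only a clone or gene model name.

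Of the 28 genes called higher, 12 are known from the extracellular matrix or stromal cells. Col6a1, a chain of collagen VI, read 6.48, 6.85 and 7.24 in the knockdown against 5.78, 5.99 and 6.21 in the wild type. Hspg2, the basement membrane proteoglycan perlecan, read 7.61, 7.97 and 8.18 against 6.93, 7.24 and 7.61 in the wild type. Both were higher on every knockdown array than on any wild-type array, by 0.83 ± 0.14 for Col6a1 (adjusted p = 0.0035) and 0.67 ± 0.11 for Hspg2 (adjusted p = 0.00342). A second probe was called for each, with differences of 0.81 and 0.53.

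Htra3, a secreted serine protease, read 7.05, 7.59 and 8.01 in the knockdown against 6.16, 6.54 and 6.95 in the wild type, 2.06-fold higher (adjusted p = 0.000361). Igfbp6, which binds insulin-like growth factor 2, read 7.37, 7.79 and 8.12 against 6.33, 6.57 and 7.14 in the wild type, 2.16-fold higher (adjusted p = 0.0116). Neither gene's groups overlapped. Ccn5, a secreted matricellular protein, had a median of 6.10 on the knockdown arrays, of which 5 lay above every wild-type array, against a median of 5.44 and a highest value of 5.85 in the wild type. It was 1.61-fold higher (adjusted p = 0.00855).

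Pdgfra, the alpha receptor for platelet-derived growth factor and a marker of fibroblasts, read 6.37, 7.25 and 7.32 in the knockdown against 5.43, 6.21 and 6.38 in the wild type. On 5 of 6 knockdown arrays it lay above every wild-type array, and it was 1.98-fold higher (adjusted p = 0.0168). A second, dimmer probe gave 0.14 ± 0.13, and the call was lost without wild-type replicate 13 or knockdown replicate 22 (adjusted p up to 0.0552). Prss35, a secreted protein related to serine proteases, was 1.92-fold higher (adjusted p = 0.0443), and Gsn, which encodes the actin-severing protein gelsolin, was 1.74-fold higher (adjusted p = 0.0358). Osr2, a transcription factor of mesenchyme, read 7.72, 8.23 and 8.66 against 6.88, 7.48 and 7.72 in the wild type, 1.71-fold higher (adjusted p = 0.0445), and its second probe gave 0.70 ± 0.17. Bmp1, the procollagen C-proteinase, Cd34, a surface protein of vascular and stromal progenitors, and Nid1, the basement membrane linker nidogen, were higher by 1.66-fold, 1.58-fold and 1.48-fold (adjusted p from 0.0439 to 0.0482). A second Bmp1 probe, detected on 4 of the 12 condensing arrays, gave 0.18 ± 0.17 (adjusted p = 0.874 over all kept probes).

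The calls of Prss35, Gsn, Osr2, Bmp1, Cd34 and Nid1 lay near the threshold. Leaving out 1 array ended the call for Gsn in 8 of 12 cases, for Prss35, Bmp1, Cd34 and Nid1 in 9 and for Osr2 in 10, with adjusted p up to 0.155. In these omissions the differences kept their sign, for example 0.68 to 0.82 for Gsn and 0.67 to 0.84 for Osr2. Knockdown replicates 21 and 22 were among the arrays whose omission ended each of the 6.

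Of 13 stromal fibroblast markers tested, Igfbp6, Htra3, Pdgfra, Col6a1 and Gsn were called higher and none lower, against 0.26% of all genes called higher. The first 3 had been placed on the list because earlier results of these data named them. Without them, 2 of 10 were called higher, all 10 differences were above 0, against 52.4% of all genes, and the median was 0.62, against 0.73 with them. Members that were not called included the brightest, Dcn, a small matrix proteoglycan, at 0.60 ± 0.22 (adjusted p = 0.338), Serping1 at 0.73 (adjusted p = 0.0755) and Mgp at 0.84 (adjusted p = 0.0843). Lum and Fbln1, also matrix genes, had differences of 0.03 and 0.06. The summed intensity of the 13 was 3989.6 to 6174 on knockdown arrays and 2859 to 4028 on wild-type arrays. Without the 3 genes it was 3595 to 5579 on knockdown arrays and 2659 to 3706 on wild-type arrays, so the groups overlapped in both versions. Col1a1, Col3a1, Dpt and Pdgfrb did not pass the detection filter. The stromal median depended on the background step, at 0.37 with no background correction.

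A further 5 genes called higher have roles in membrane transport or signalling. Slc38a5, an amino acid transporter that is known from Sertoli cells among others, read 8.20, 8.59 and 9.11 in the knockdown against 7.59, 7.93 and 8.24 in the wild type, 1.67-fold higher (adjusted p = 0.0306). On 5 of 6 knockdown arrays it lay above every wild-type array. Pmp22, a membrane protein of myelin and of fibroblasts, was 1.64-fold higher without overlap (adjusted p = 0.0232), and Tmem106c was 1.40-fold higher, also without overlap (adjusted p = 0.0358). Avpr1a, the V1a vasopressin receptor, was 1.62-fold higher (adjusted p = 0.0423). Slc24a2, a sodium, calcium and potassium exchanger, was detected on 5 knockdown arrays and 1 wild-type array and was 1.66-fold higher (adjusted p = 0.014), a call lost only without knockdown replicate 22. Knockdown replicate 22 was also among the arrays that ended the calls of Slc38a5, Pmp22, Tmem106c and Avpr1a, for each of which 5 to 8 omissions did so.

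The lipid genes Cyp27a1 and Cidea were higher by 1.67-fold and 1.77-fold. Cyp27a1, the mitochondrial sterol 27-hydroxylase, read 7.32, 7.68 and 8.26 in the knockdown against 6.38, 7.07 and 7.34 in the wild type (adjusted p = 0.0423), and its 2 further probes were called with differences of 0.69 and 0.77. Cidea, a lipid droplet protein, read 6.25, 6.66 and 7.11 against 5.10, 5.77 and 6.58 in the wild type (adjusted p = 0.0378). The groups overlapped for both, and 9 of 12 single omissions ended each call, among them knockdown replicates 21, 22 and 24.

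Among genes of vesicles and secretion, Syngr2, a synaptic vesicle family protein found outside neurons, was 1.43-fold higher without overlap (adjusted p = 0.0164), a call lost without knockdown replicate 22. A second Syngr2 probe, detected on 6 of the 12 condensing arrays, gave 0.21 ± 0.14 (adjusted p = 0.773 over all kept probes). Snx29, a sorting nexin and one of the brighter called genes, read 9.18, 9.34 and 9.79 in the knockdown against 8.76, 8.88 and 9.03 in the wild type (adjusted p = 0.0443), while a second Snx29 probe gave 0.06 ± 0.14. Cltb, a clathrin light chain, and Chgb, the granule protein chromogranin B, were higher by 1.48-fold and 1.47-fold. Nav1, which binds microtubules, read 6.09, 6.26 and 6.51 against 4.97, 5.46 and 6.00 in the wild type, 1.77-fold higher (adjusted p = 0.0291). Its second probe gave 0.48 ± 0.17 (adjusted p = 0.364), and its call was lost without replicate 15, 16, 17, 19, 22 or 24. Tchp, a keratin-binding protein of centrosomes, read 9.07 to 9.20 in the knockdown against 8.54 to 8.91 in the wild type. Snapc4, a subunit of the complex that transcribes small nuclear RNAs, Etl4 and Fbxo31 were called with adjusted p of 0.0497. The 2 other Fbxo31 probes gave 0.00 and -0.02, so that the call of this gene rested on 1 probe. For Snx29, Cltb, Chgb, Tchp, Snapc4, Etl4 and Fbxo31, between 9 and 11 of the 12 single omissions ended the call.

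Markers of other cells of the testis were read beside these groups. The 15 Sertoli cell markers had no called member, and 14 of the 15 differences were above 0, against 52.4% of all genes, with a median of 0.19. The same list had a median of 0.23 in round spermatids, where no gene was called. Their summed intensity was 20975 to 22733.5 in the knockdown and 16223 to 21621 in the wild type. Tsx and Rhox8 had the highest of these differences, at 0.42 and 0.33 (adjusted p = 0.448 and 0.463). Of 6 Leydig cell markers none was called and the median difference was 0.08, with summed intensities of 2356 to 3632 in the knockdown and 2646 to 3447 in the wild type. Of 6 erythroid markers none was called and the median was 0.20. The part of cell composition in the called differences was not tested.

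**Figure D4:**
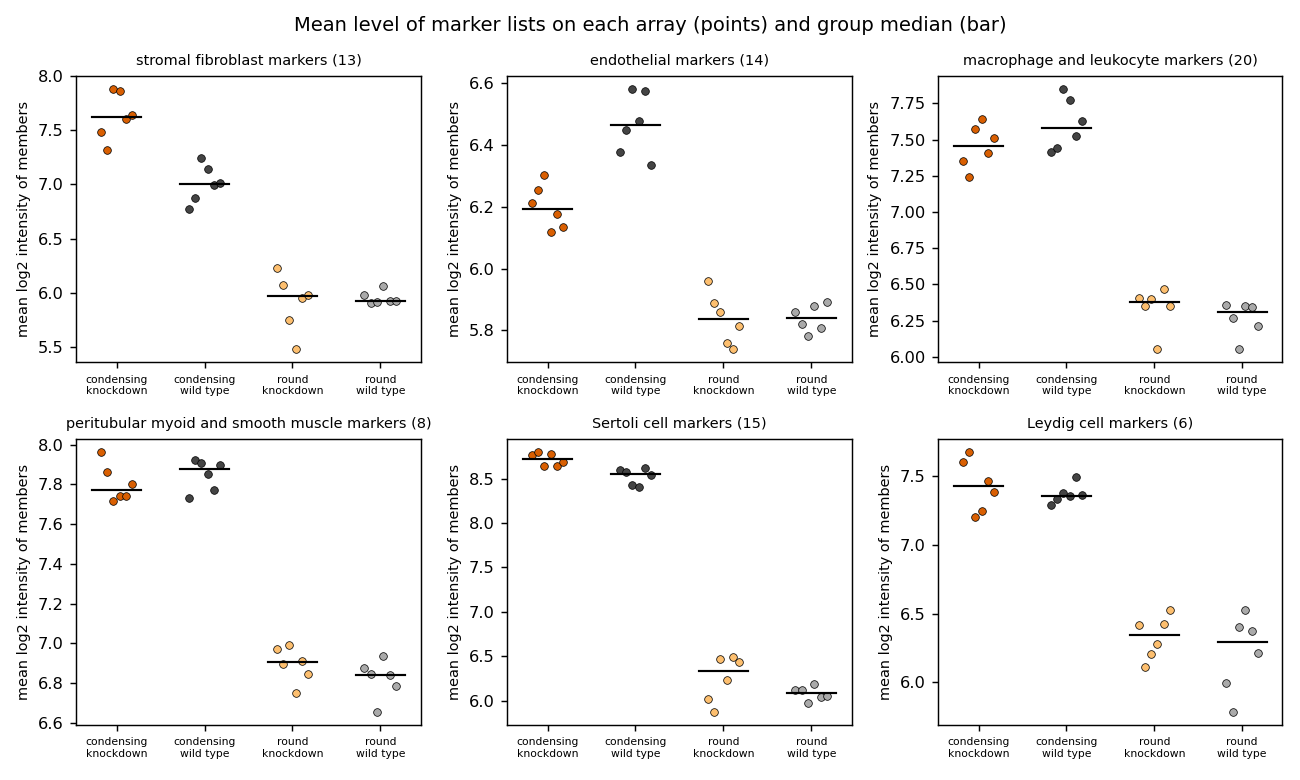
Mean log2 intensity of the tested members of 6 marker lists on each array (points), with the median of each group of 6 arrays (bar). The Sertoli list is higher on every condensing knockdown array than on any condensing wild-type array. The endothelial list, which includes the called Emcn, Flt1 and Esam, is lower on every one. The stromal list does not overlap as plotted, but it does without Igfbp6, Htra3 and Pdgfra, at 7.41 to 7.93 in the knockdown and 7.01 to 7.41 in the wild type, and the other lists overlap.

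No germ cell list had a called member. Over all genes 0.539% were called, a share at which lists of this size may hold none. The 22 genes of spermatid chromatin packaging had a median difference of 0.02 and ranged from -0.14 for Prm3 to 0.32 for the acetyltransferase gene Kat5. Tnp1 and Tnp2, which encode the transition proteins, each had a difference of -0.02, with 95% intervals of -0.20 to 0.17 and -0.33 to 0.29. Prm1 had 0.05 (-0.15 to 0.24). Brdt, the testis bromodomain protein that binds acetylated histones, had -0.11 (-0.37 to 0.14), with readings of 11.11, 11.32 and 11.80 in the knockdown against 11.32, 11.52 and 11.66 in the wild type. Tnp1 and Prm1 read near the top of the intensity scale, and whether their probes were saturated was not tested. Prm2 was not analysed here.

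Genes of the acrosome, the enzyme-filled cap of the sperm head, had a median of -0.05 over 33 genes. At an unadjusted limma p under 0.05, 4 of the 33 were lower and none higher, against 3.9% of all genes lower. The lowest were Hyal5 at -0.45 and Zp3r at -0.44 (adjusted p = 0.346 and 0.437). The 40 flagellum genes had a median of 0.01, the 19 regulators of haploid transcription -0.03, and the 20 markers of spermatocytes -0.01. Crem, the CREB family activator of haploid genes, had a difference of -0.03. Sycp1, a synaptonemal complex gene, had the lowest difference among the spermatocyte markers, at -0.71 (adjusted p = 0.314).

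Metabolic and housekeeping lists also had no called member, where 0.539% of all genes were called. The median difference was 0.02 over 22 glycolysis genes, 0.08 over 65 oxidative phosphorylation genes, 0.07 over 33 fatty acid oxidation genes, 0.06 over 40 proteasome genes and 0.03 over 54 ribosomal protein genes. Of the oxidative phosphorylation genes, 51 of 65 were above 0, within a range of -0.28 to 0.31, and none reached an unadjusted p under 0.05. The 31 writers, readers and erasers of acetylation had a median of 0.02 and the 16 stress and heat shock genes of 0.01. Median scaling moved the median of all genes to 0.05, and differences of this size in a list are to be read against that shift.

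**Figure D5:**
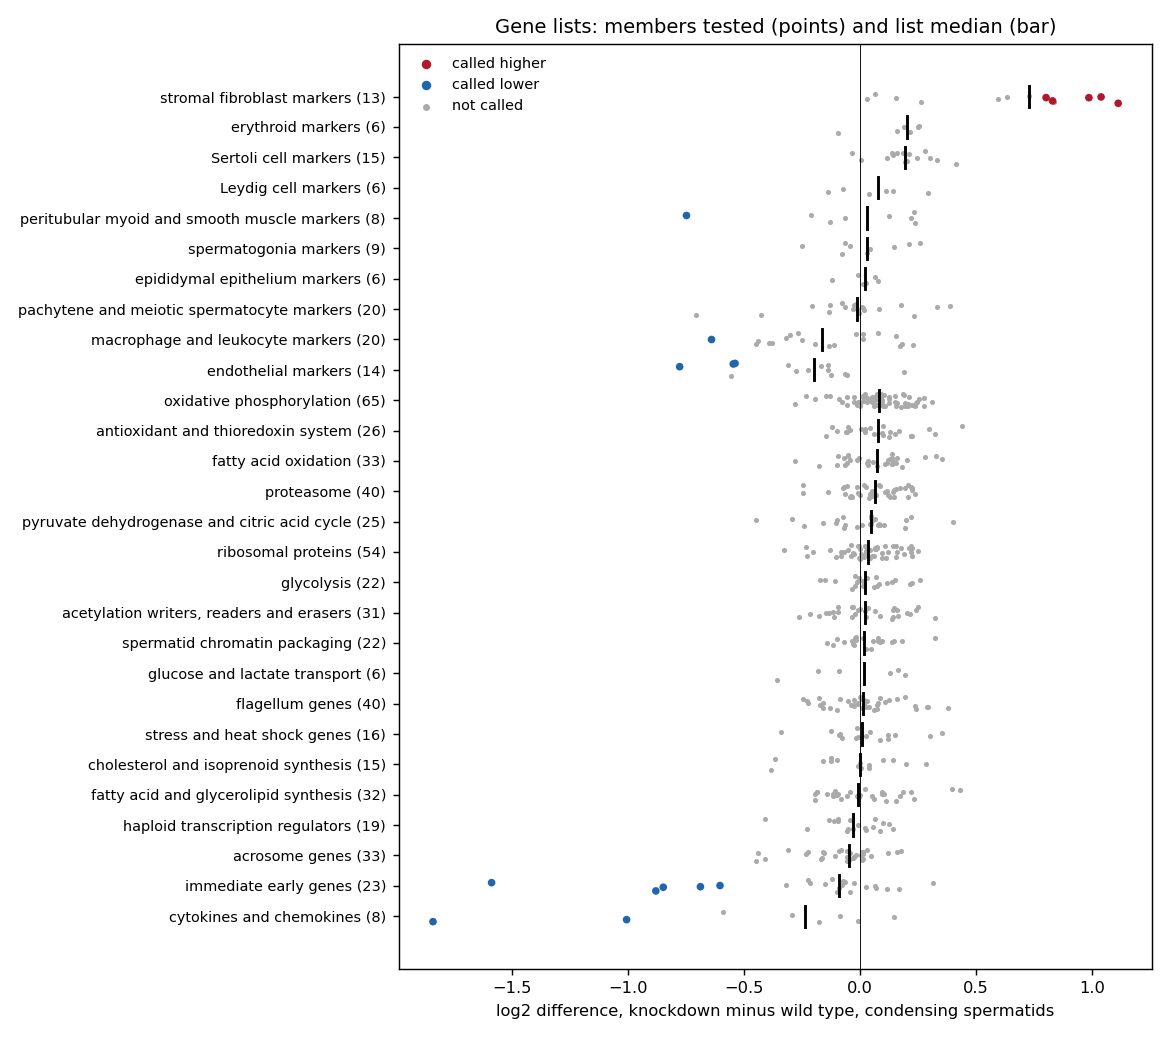
Each point is a gene of the named list (number tested in brackets) at its log2 difference, knockdown minus wild type, in condensing spermatids; bars are list medians. Called genes (red higher, blue lower) occur in 6 lists, and the stromal list has its median at 0.73, or 0.62 without the 3 genes placed on it from earlier results, while all other lists lie between -0.23 and 0.20.

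In round spermatids the same contrast gave no call at all (0% of 10759 genes; 388 genes, 3.61%, at an unadjusted p under 0.05), and the smallest adjusted p of limma there was 0.894. The 58 genes had differences between -0.29 and 0.42 in round cells, and 23 had the same sign as in condensing cells. The difference between both effects was itself tested over all genes, of which 747 (6.94%) had an unadjusted p under 0.05. It was called for 5 genes, 0.0465% of all, and each of them is among the 58: Ccl4 at -2.01 ± 0.25 (adjusted p = 0.000149), Fos at -1.70 ± 0.23 (adjusted p = 0.000163), Gria1 at -1.33 ± 0.24 (adjusted p = 0.0259), Zfp36 at -0.97 ± 0.18 (adjusted p = 0.0291) and Prf1 at -1.13 ± 0.21 (adjusted p = 0.0273). That count was 9 without wild-type replicate 14, 3 without wild-type replicate 15, 11 without knockdown replicate 20, 3 without knockdown replicate 24 and 2 without wild-type replicate 16 and knockdown replicate 19 together. For the remaining called genes the effect was not shown to differ between stages. Of these Il1b, Htra3 and Emcn came closest, with adjusted p of 0.0549, 0.0549 and 0.0553. In round cells Ccl4 was detected on 2 of 6 knockdown arrays and no wild-type array, and Emcn on no array. A fall of these genes could therefore not be read in round cells. Gria1 was detected there on 4 knockdown and 6 wild-type arrays, and Fos, Zfp36 and Prf1 on all 6 arrays of each round group.

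In round cells the Prf1 probe read 7.50, 8.02 and 8.37 in the knockdown against 7.30, 7.45 and 8.03 in the wild type (unadjusted p = 0.00858, limma adjusted p = 0.999). Most of the called genes were brighter on condensing than on round arrays. So were markers of several other cell types. In wild type the median summed intensity, condensing against round, was 19146 against 1934 for Sertoli and 63064 against 3748 for erythroid markers. It was 3302.5 against 1167 for stromal and 2004 against 1226 for endothelial markers, while the epididymal list was dimmer, at 8239 against 13414. Which cells carried the stage difference of the called genes was not tested. Of the 30 lower genes, 22 were brighter in condensing than in round wild-type cells, and 19 were still brighter in condensing knockdown cells than in round wild-type cells by their medians, and of the 28 higher genes 24 were brighter in condensing than in round wild-type cells. Over all genes 47.8% were brighter in condensing wild-type cells.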

How the data were processed

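The deposited non-normalized table gives bead-averaged intensity for every probe and array on a linear scale, per the file headers. Beside it stands a detection p-value against negative controls, also per the file headers. The authors deposited a second table of linear intensity whose columns share their quantiles. The sources used here give no scanner software, build or chip.

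Intensities were background-corrected by normexp from the detection p-values with an offset of 16, quantile normalized over 24 arrays and put on the log2 scale (limma 3.58.1, R 4.3.3). The filter kept 19086 probes, those detected (p under 0.05) on 6 or more arrays. Probes without a symbol (3143) or with several (10) were dropped, and the brightest probe stood for a gene. The limma model held 4 group means, tests were two-sided, and p-values were adjusted by Benjamini-Hochberg over 10759 genes. Values given as lowest, median and highest are log2 intensities of 6 arrays, and errors of differences are standard errors. Summed intensities are linear.

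Genes were named by rule. The rule took the targeted genes, packaging genes and the 15 largest called falls and rises detected on all 6 arrays of a condensing group. It also took the 4 smallest p of lists with 2 or more calls and the brightest marker of each somatic cell list described. Other genes were named after their values were seen. Gene lists and members were chosen with earlier results of these data known. Normalization, background, filter, probe choice, samples in the fit, array weights, blocks and left-out arrays were varied.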

Additional observations from a re-analysis of the deposited data

Results flagged for a closer look

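On knockdown replicate 19 Cd14 read 5.52 on the log2 scale, far below the other 5 knockdown arrays. On knockdown replicate 21 Zfp36 read 6.81, above the other 5 knockdown arrays and still below every wild-type array. A gap of this relative size arises by chance in about 1 of 20 groups, and 118 groups were examined.

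The effect of the knockdown differed between condensing and round spermatids for 5 genes by limma's test of the difference. The effect in condensing cells minus that in round cells was -2.01 for Ccl4, -1.70 for Fos, -1.33 for Gria1, -1.13 for Prf1 and -0.97 for Zfp36. In round cells Ccl4 was detected on 2 knockdown arrays and no wild-type array, so a fall of it could not be read there.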

How the results depend on the processing

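No paired analysis was possible because the replicate numbers run from 1 to 24 across the groups and none is shared. Against 58 genes called in condensing spermatids (28 higher, 30 lower), median scaling gave 22 (12 higher, 10 lower), cyclic loess 24 (8 higher, 16 lower), the condensing arrays alone in the fit 26 (9 higher, 17 lower), consecutive arrays as a random block 22 (8 higher, 14 lower) and array weights 116 (66 higher, 50 lower). Normalizing and fitting the condensing arrays alone gave 41 (18 higher, 23 lower). Chosen after seeing the data, leaving out wild-type replicate 16 and knockdown replicate 19 together gave 36 (22 higher, 14 lower), and testing each kept probe on its own gave 89 probes. Leaving out 1 array gave 25 to 47 called genes, 5 to 24 higher and 14 to 25 lower. The difference between the knockdown effects, called for 5 genes, was called for 3 with median scaling, 2 with cyclic loess, 8 with the filter on condensing arrays, 11 with no filter, 8 with the mean of probes, 16 with array weights, 2 with the random block, 2 without both arrays and 3 to 11 with 1 array left out. The cause was not tested. The counts in round spermatids were 0 in each alternative run. The deposited normalized values gave 62 calls, 40 of them among the 58, and, like those with no background correction, put none of the 58 at 2-fold, against 2 with an offset of 50. Of the 58 genes, 11 were called under all 26 alternatives, or for Emcn under the 25 in which it was tested. The sign of Fbxo31, log2 difference in condensing spermatids, turned with cyclic loess (-0.0134), without knockdown replicate 21 (-0.0466), without knockdown replicate 24 (-0.0138), without both arrays (-0.0889) and on another probe (-0.0217), and its values with 1 array left out reached from -0.0466 to 0.48; in the 3 omissions another probe became the brightest. No other called gene changed sign under these alternatives. The number of arrays limits the precision.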
